A study of Mus musculus with 23 samples.

Results

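The genes described here are the T-cell coreceptors Cd4, Cd8a and Cd8b1 and 3 nuclear factors that control which coreceptor a T cell keeps, Zbtb7b, Runx3 and Tox. They were taken by gene name from a table of 24475 genes, which lists all 6 of them, and all 6 passed the filter on low values in every comparison. RNA sequencing was performed on 23 mouse samples, each 1 library, named here by the number in its label. The 6 thymus libraries came from normal C57BL/6 mice. The 14 WT T-ALL libraries (WT tumors) were made from spleens of BALB/c Rag2-/-Il2rg-/- hosts in which a grafted lobe of newborn wild-type thymus, placed under the kidney capsule, had given rise to T-ALL (T-cell acute lymphoblastic leukemia), a cancer of immature T cells. The 3 Notch3 KO T-ALL libraries (knockout tumors) were made from spleens of the same kind of host after grafting of thymus that lacked Notch3. Tissue and host strain therefore part with the groups, and leukemia, organ and strain cannot be told apart in any comparison with thymus. Methods of the study name B6.Ly5.1, a congenic line, as the wild-type donor and give the Notch3 allele as carrying a beta-galactosidase gene inserted into the first coding exon. The labels give neither the age nor the sex of the mice, and the Y-linked gene Ddx3y had a mean of 0.01 in thymus and spanned 0.02 to 5.14 in WT tumors, so RNA of the Y chromosome parts some tumors from thymus as well, and the part of sex in the results was not tested. The study describes expression in these T-ALL cases and in normal thymus with a separate mouse for each value, while the labels name no animals, and where controls share an animal the p-values would measure technical spread in part.

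CD4 and CD8 are surface proteins that bind MHC class II and class I and bring the kinase Lck to the T-cell receptor. Most thymocytes pass through a stage with both coreceptors and then silence one of them. Zbtb7b encodes ThPOK, which is needed for the CD4 lineage, Runx3 silences Cd4 and supports Cd8 expression in the CD8 lineage, and Tox encodes a DNA-binding protein needed for the development of CD4 T cells. CD8 on most T cells is a pair of the chains made from Cd8a and Cd8b1. Cd4 RNA is also made by some macrophages and dendritic cells, and Cd8a RNA by a subset of dendritic cells.

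Values are log2(scaled RPKM + 1), as deposited, where RPKM is a read count normalized to transcript length and library size and was scaled to the same upper quartile in each library. A difference of 1 corresponds to a factor near 2 for well-expressed genes and understates the change of genes with low values. Relative to the library of thymus control 1, the depth read from the lowest values was 0.276 to 1 for thymus libraries, 0.279 to 1.62 for WT tumors and 0.715 to 0.845 for knockout tumors. Levels of the gene Sco2 parted the libraries into 2 sets that the labels do not mention. Set A held thymus controls 5 and 6, WT T-ALL 3, 4, 5 and 7, and all 3 Notch3 KO T-ALL, and set B held the other 14 libraries. Thymus controls 2 and 4, and likewise 1 and 3, were closer to each other than any other thymus pair. Notch3 spanned 2.62 to 4.29 in thymus, 3.17 to 5.78 in WT tumors and 2.59 to 3.74 in knockout tumors, so the knockout libraries overlapped both other groups. Knockout minus WT tumors was -1.56 ± 0.41 (SE; limma, adjusted p = 0.101), which did not pass the test, and a value over the whole gene does not show whether the allele was disrupted. Genes of the T-cell receptor complex and its signaling (Cd3e, Cd3d, Cd3g, Cd2, Lat and Zap70) were present in every group, with a mean log2 level of 7.72 to 7.93 in thymus, 6.99 to 8.15 in WT tumors and 7.13 to 7.69 in knockout tumors.

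On assembly GRCm38.p6, Cd8b1 (gene 12526, chromosome 6, 71322788 to 71337494) and Cd8a (gene 12525, chromosome 6, 71373427 to 71379173) lie 35.9 kb apart on the forward strand, and Cd4 (gene 12504, chromosome 6, 124864692 to 124888221) lies on the reverse strand of the same chromosome. Zbtb7b (gene 22724) spans chromosome 3, 89377644 to 89394776. Runx3 (gene 12399) spans chromosome 4, 135120652 to 135177990, and Tox (gene 252838) the same chromosome from 6686353 to 6991557. The last 3 each overlap an antisense gene (Gm15417, Gm16224 and Gm11802). The libraries were made with a stranded kit, but whether strand was used in counting is not given in the sources used here, so reads of these antisense genes may be part of the values.

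The RefSeq table used here holds the start sites of 3 of the 6 genes, in 5 windows. Shown are the 250 bases before a start of Cd8a, Zbtb7b and Runx3, because Runx proteins act at coreceptor and lineage-factor genes and their core motif can be read directly. Capitals mark TGTGGT or its reverse complement ACCACA, which occurs in 14.0% of the 32851 windows of this length in the table. The windows are chr6:71373177-71373426 (forward strand) for Cd8a, chr3:89387672-89387921 (reverse strand) for the downstream start of Zbtb7b and chr4:135120395-135120644 (forward strand) for the upstream start of Runx3.
Cd8a: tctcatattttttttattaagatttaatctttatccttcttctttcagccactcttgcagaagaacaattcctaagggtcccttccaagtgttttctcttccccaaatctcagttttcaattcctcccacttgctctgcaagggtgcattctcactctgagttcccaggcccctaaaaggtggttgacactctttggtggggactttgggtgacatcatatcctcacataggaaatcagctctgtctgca
Zbtb7b: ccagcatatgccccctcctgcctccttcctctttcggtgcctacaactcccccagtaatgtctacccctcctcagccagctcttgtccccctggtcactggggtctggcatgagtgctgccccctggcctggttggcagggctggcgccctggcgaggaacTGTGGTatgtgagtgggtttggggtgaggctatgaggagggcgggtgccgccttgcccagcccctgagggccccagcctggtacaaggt
Runx3: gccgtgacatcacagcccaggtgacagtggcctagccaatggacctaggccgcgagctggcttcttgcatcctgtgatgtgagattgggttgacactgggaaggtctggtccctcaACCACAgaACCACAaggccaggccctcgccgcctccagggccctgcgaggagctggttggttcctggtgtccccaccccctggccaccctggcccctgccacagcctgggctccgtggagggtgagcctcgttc
The Runx3 window held 2 matches and the Zbtb7b window 1, and the Cd8a window held none. The windows of the other start of Zbtb7b and of Runx3 held none. A match is a description of the letters and not a binding site.

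The first comparison asked how coreceptor RNA in the leukemic spleens stood against that of thymus. All 3 coreceptor genes were far lower in WT T-ALL, with Cd4 at the largest difference, though its interval overlapped those of Cd8a and Cd8b1 and the order turned round with an erythroid covariate. Of the 6 genes, 5 fell (Cd4, Cd8a, Cd8b1, Zbtb7b and Tox) and none rose, where 51.6% of the 11919 genes tested passed, 22.3% lower and 29.3% higher. The median difference of the 6 genes was -1.99, beside 0.08 over all genes tested. In 3 of the 6, every WT T-ALL library lay below every thymus library, which was so for 6.64% of all genes tested.

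Cd4 stood at 8.36, 8.50, 8.63, 8.31, 8.44 and 8.86 in thymus controls 1 to 6. In the 14 WT T-ALL libraries its lowest value was 1.90 (WT T-ALL 3), its median 4.08 and its highest 6.30 (WT T-ALL 7), so the groups did not overlap. In scaled RPKM this was 368 ± 54.9 (SD, n = 6) in thymus and 24.0 ± 20.2 (SD, n = 14) in WT T-ALL, and the mean was 15.3 times higher in thymus. Cd4 fell by 4.30 ± 0.50 (SE) on the log2 scale (limma, adjusted p = 4.12e-07), with a 95% interval of the difference from -5.32 to -3.27. An exact two-sided permutation test gave p = 5.16e-05, the smallest that 14 against 6 libraries allow. The difference was -4.04 within set A and -4.38 within set B, and both passed (limma, adjusted p = 0.0437 and 1.84e-06).

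Cd8a stood at 9.01, 9.23, 9.18, 9.07, 9.45 and 9.57 in the thymus controls. In WT T-ALL it ran from 4.64 (WT T-ALL 3) through a median of 6.86 to 7.63 (WT T-ALL 128), again with no overlap. Cd8a fell by 2.67 ± 0.39 (SE; limma, adjusted p = 7.01e-06). In scaled RPKM the mean was 5.56 times higher in thymus.

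Cd8b1, the second CD8 chain, stood at 9.57, 9.57, 9.68, 9.33, 9.66 and 9.96 in the thymus controls. In WT T-ALL its lowest value was 4.55, its median 6.81 and its highest 7.64. Cd8b1 fell by 3.18 ± 0.43 (SE; limma, adjusted p = 3.46e-06), and its mean scaled RPKM was 7.76 times higher in thymus. With any 1 library left out, the difference of Cd4 stayed between -4.46 and -4.12, that of Cd8a between -2.75 and -2.52 and that of Cd8b1 between -3.28 and -3.04. Within sets A and B the differences were -3.25 and -2.41 for Cd8a and -3.53 and -3.03 for Cd8b1, all past the threshold.

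**Figure D1:**
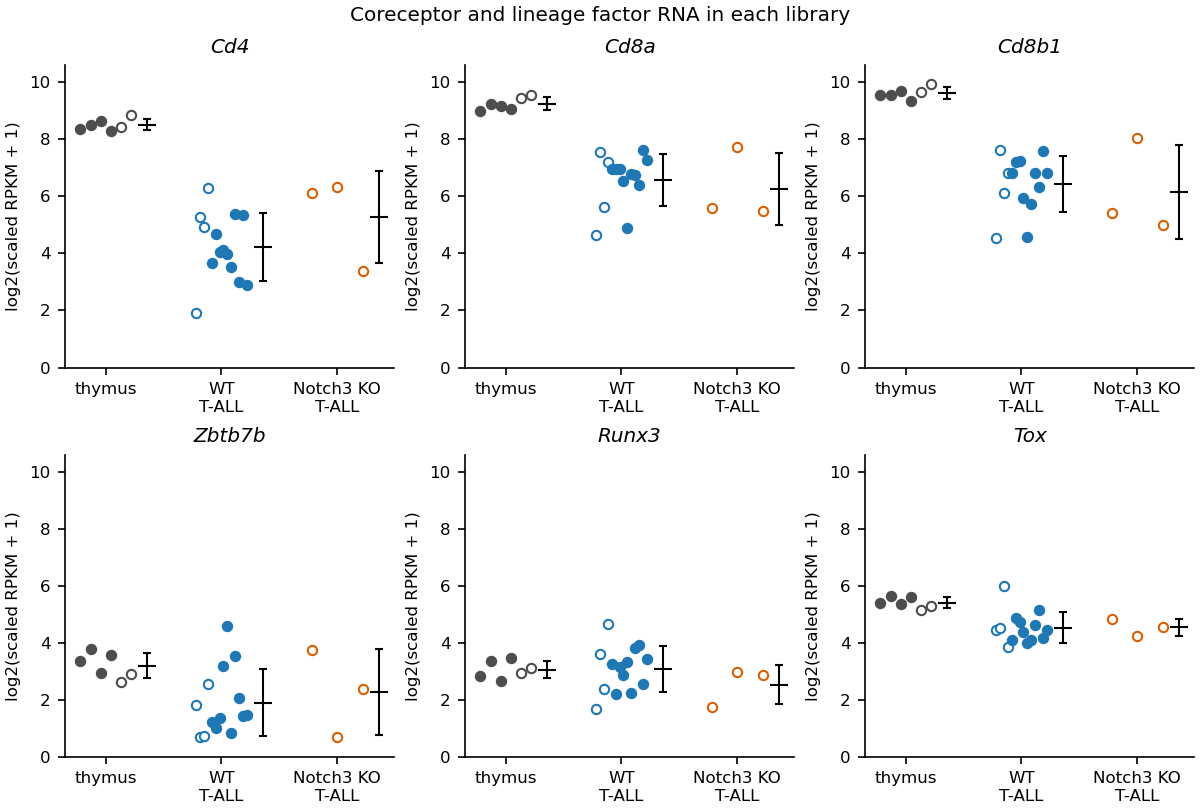
Level of each gene in log2(scaled RPKM + 1) in every library, by group; open points are set A, filled points set B, and the bar at the right of each group is the mean with its SD. All WT and Notch3 KO T-ALL points of Cd4, Cd8a and Cd8b1 lie below all thymus points, while those of Runx3 lie on both sides of them.

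RNA of marker genes of other cell types also differed between these groups. All 5 erythroid genes found in the table rose against thymus in both kinds of tumor, and their summed scaled RPKM spanned 0.174 to 2.36 in thymus, 24.0 to 618 in WT tumors and 327 to 1760 in knockout tumors, with Klf1 and Epb42 at 0 in at least 1 thymus library. The 6 neutrophil genes (such as S100a8, Ltf and Elane) summed to 56.9 to 529 in thymus, 629 to 84100 in WT tumors, highest in WT T-ALL 110, and 199 to 7520 in knockout tumors. All 6 rose in WT tumors and 2 of 6 in knockout tumors. The 6 macrophage genes summed to 8.43 to 51.9, 15.9 to 271 and 192 to 270, in the same order of groups, and 5 of 6 rose in WT tumors and 6 of 6 in knockout tumors. The 5 dendritic cell genes summed to 1.06 to 2.68, 0.671 to 12.6 and 4.11 to 6.41, and of the 3 tested, 2 (Clec9a and Zbtb46) rose in each comparison with thymus, and the 4 B-cell genes fell in both. Of 6 thymic epithelial genes 1 passed the filter on low values, and Foxn1, Psmb11 and Krt5 were at 0 in all knockout tumors. Beyond the covariate fits given next, the part of these cells in the results was not tested. In bulk samples, fewer cells of a type and less RNA per cell cannot be told apart.

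With the erythroid level as a covariate, whose values do not overlap between thymus and tumors and so cannot be told apart from the groups, the difference of Cd4 was -2.25 and no longer passed (limma, adjusted p = 0.178), while Cd8a (-3.11, adjusted p = 0.0318) and Cd8b1 (-3.27, adjusted p = 0.0448) did. With the neutrophil level as a covariate, the differences of Cd8a and Cd8b1 were -1.64 and -1.84 and both passed (adjusted p = 0.00803 and 0.00388, limma). Relative to the mean of the 6 T-cell genes, the differences were -4.08 for Cd4, -2.45 for Cd8a and -2.97 for Cd8b1, and all 3 passed, where this scaling moved the median of all genes to 0.294 and the share of calls that were higher from 56.8% to 77.9%.

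The tumors differed widely in coreceptor level. The SD over the 14 WT T-ALL libraries was 1.19 for Cd4, 0.92 for Cd8a and 0.97 for Cd8b1, beside a median of 0.412 over the 11677 genes tested among the T-ALL libraries. Over the thymus libraries the same genes had an SD of 0.20, 0.22 and 0.20, beside a median of 0.226. In scaled RPKM the highest WT T-ALL library exceeded the lowest 28.7 times for Cd4, 8.20 times for Cd8a and 8.84 times for Cd8b1.

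**Figure D2:**
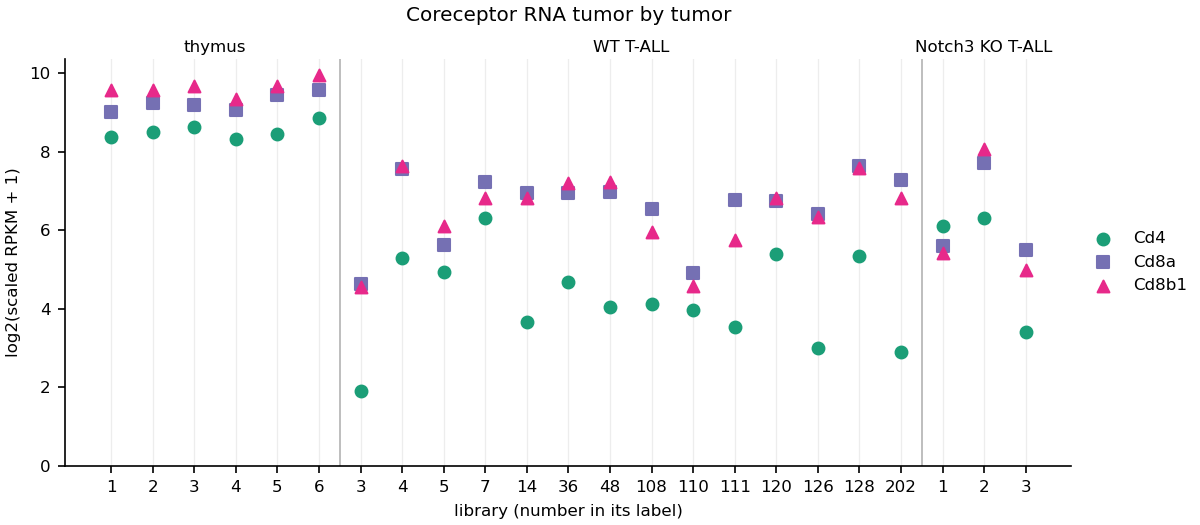
Cd4, Cd8a and Cd8b1 in log2(scaled RPKM + 1) in each library, ordered by group and by the number in the label. Cd8b1 minus Cd8a runs from -1.04 to 0.49 over the WT tumors, while Cd4 minus Cd8a runs from -0.69 in WT T-ALL 5 to -4.37 in WT T-ALL 202, and Notch3 KO T-ALL 1 is the library with Cd4 above Cd8a.

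Cd4 lay below Cd8a in all 14 WT T-ALL libraries and in all 6 thymus libraries, but by different amounts. The difference Cd4 minus Cd8a ran from -1.01 to -0.55 in thymus and from -4.37 to -0.69 in WT T-ALL, with means of -0.74 ± 0.15 (SD, n = 6) and -2.37 ± 1.08 (SD, n = 14). It was widest in WT T-ALL 202 (-4.37), 126 (-3.41), 14 (-3.30) and 111 (-3.23). It lay inside the thymus range in WT T-ALL 5 (-0.69), 7 (-0.92) and 110 (-0.94).

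The WT tumors with the narrowest gap reached it at different levels. WT T-ALL 7 held the highest Cd4 of the WT tumors (6.30) beside a Cd8a of 7.22, whereas WT T-ALL 110 held a Cd4 of 3.97 beside a Cd8a of 4.91. Lowest in all 3 genes was WT T-ALL 3, with 1.90 for Cd4, 4.64 for Cd8a and 4.55 for Cd8b1, while its T-cell genes summed to a scaled RPKM of 1740, inside the thymus range of 1480 to 1810.

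Cd8a and Cd8b1 moved together from tumor to tumor. Over the 14 WT T-ALL libraries Pearson's r was 0.92 and Spearman's rho 0.87 (two-sided permutation test, p = 2e-05 and 7e-05, adjusted over 15 pairs 0.0003 and 0.00105). Without the 2 libraries farthest from the median of Cd8a, r was 0.74 and its adjusted p of 0.0666 in the permutation test no longer passed. Relative to the T-cell genes r was 0.91 (permutation test, adjusted p = 0.0003). None of the other 14 pairs passed. The largest r among them was 0.57, for Cd4 with Cd8b1 (permutation test, p = 0.0349, adjusted p = 0.262). Cd8a with Tox had an r of -0.19, which was -0.74 without the 2 libraries farthest from the median of Cd8a (permutation test, p = 0.00888, adjusted p = 0.0666).

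The order of the CD8 chains differed between the groups. Cd8b1 lay above Cd8a in 6 of 6 thymus libraries, by 0.38 ± 0.14 (SD), and in 5 of 14 WT T-ALL libraries, where the mean difference was -0.14 ± 0.39 (SD). Among the WT tumors Cd8b1 minus Cd8a was lowest in WT T-ALL 111 (-1.04), followed by 108 (-0.58) and 202 (-0.46). This difference was not tested.

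Zbtb7b, Runx3 and Tox were examined next, as the factors that act on the coreceptor genes. Zbtb7b and Tox fell in WT T-ALL and Runx3 did not pass the test. Zbtb7b stood at 3.36, 3.78, 2.95, 3.57, 2.63 and 2.91 in the thymus controls. In WT T-ALL it ran from 0.69 (WT T-ALL 4) through a median of 1.46 to 4.58 (WT T-ALL 110). The groups overlapped, with 11 of 14 WT T-ALL libraries below all thymus libraries and 1 above them.

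Zbtb7b fell by 1.30 ± 0.49 (SE; limma, adjusted p = 0.0304). The call was lost without thymus control 1 (adjusted p = 0.0541), 2 (adjusted p = 0.0709) or 4 (adjusted p = 0.0635, limma), with no filter on low values (adjusted p = 0.0742) and with the closely alike controls averaged (-1.20, adjusted p = 0.108, limma). It was also lost within set A (-1.32, adjusted p = 0.254), within set B (-1.34, adjusted p = 0.075), relative to the T-cell genes (-1.09, adjusted p = 0.12) and with the erythroid covariate (-1.42, adjusted p = 0.465, limma). With the neutrophil or the macrophage level as a covariate the difference was -2.93 or -2.11, both past the threshold (limma, adjusted p = 0.000114 and 0.00218).

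The highest Zbtb7b was in the library with the most neutrophil RNA. In WT T-ALL 110, Zbtb7b stood at 4.58 and the neutrophil genes summed to a scaled RPKM of 84100. Next among the WT tumors were WT T-ALL 120 (3.53) with a neutrophil sum of 1020, and WT T-ALL 108 (3.19) with 17200. Over the 14 libraries Zbtb7b and the mean log2 level of the neutrophil genes had an r of 0.67 and a rho of 0.57 (permutation test, p = 0.00966 and 0.0342), which did not pass over the 24 relations of 6 genes with 4 cell lists (adjusted p = 0.141 and 0.219). Without the 2 libraries farthest from the neutrophil median r was 0.14. With the T-cell genes r was -0.65 and rho -0.59 (permutation test, p = 0.0117 and 0.0297, adjusted p = 0.141 and 0.219), and -0.51 without the 2 farthest libraries. With the macrophage genes both r and rho were 0.59 (permutation test, p = 0.0249 and 0.0287, adjusted p = 0.199 and 0.219), and r was 0.51 without the 2 farthest libraries. Among the other genes, Cd8b1 with the neutrophil genes had an r of -0.56 and a rho of -0.31 (permutation test, p = 0.0362 and 0.273, adjusted p = 0.217 and 0.505). Tox with the macrophage genes had an r of -0.49 and a rho of -0.57 (permutation test, p = 0.0732 and 0.0365, adjusted p = 0.251 and 0.219), and Cd4 with the erythroid genes an r of -0.51 and a rho of -0.54 (permutation test, p = 0.0632 and 0.0496, adjusted p = 0.251 and 0.238). Without the 2 farthest libraries these r were -0.22, -0.50 and -0.23. The part of neutrophils or other host cells in the Zbtb7b level was not tested.

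Runx3 stood at 2.82, 3.37, 2.65, 3.45, 2.95 and 3.11 in the thymus controls and ran from 1.68 (WT T-ALL 3) through a median of 3.20 to 4.64 (WT T-ALL 7). The WT T-ALL libraries lay on both sides of thymus, 5 below all thymus libraries and 4 above them. The difference was 0.01 ± 0.32 (SE; limma, adjusted p = 0.975), with an interval from -0.65 to 0.68. The SD over WT T-ALL was 0.81, beside 0.31 over thymus.

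Tox stood at 5.39, 5.64, 5.36, 5.61, 5.15 and 5.28 in the thymus controls. In WT T-ALL it ran from 3.84 (WT T-ALL 7) through a median of 4.44 to 5.98 (WT T-ALL 5), with 12 of 14 libraries below all thymus libraries and 1 above. Tox fell by 0.88 ± 0.22 (SE; limma, adjusted p = 0.00178). Within set A the difference was -0.52 (adjusted p = 0.469) and within set B -1.04 (adjusted p = 0.000729, limma). It did not pass with the erythroid (-0.42, adjusted p = 0.632) or the neutrophil level (-0.67, adjusted p = 0.0957, limma) as a covariate.

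**Figure D3:**
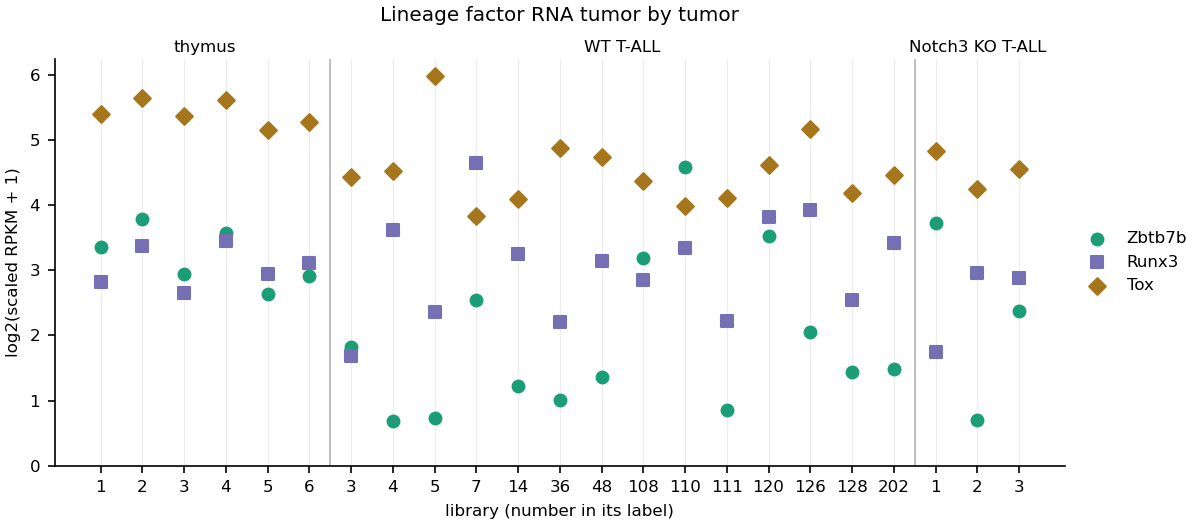
Zbtb7b, Runx3 and Tox in log2(scaled RPKM + 1) in each library, ordered by group and by the number in the label. In thymus Zbtb7b and Runx3 lie within 0.54 of each other, and in most tumors Zbtb7b lies below Runx3, with WT T-ALL 110 and Notch3 KO T-ALL 1 the clearest exceptions.

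The balance of Zbtb7b and Runx3, which mark the CD4 and the CD8 choice, varied between tumors. Zbtb7b minus Runx3 ran from -0.32 to 0.54 in thymus, where it was above 0 in 4 of 6 libraries. In WT T-ALL it was above 0 in 3 of 14 libraries, WT T-ALL 110 (1.24), 108 (0.33) and 3 (0.15), and reached -2.93 in WT T-ALL 4. In the WT tumor with the highest Cd4, WT T-ALL 7, Runx3 was also at its highest (4.64) and Zbtb7b at 2.54. Over the 14 libraries Cd4 and Zbtb7b had an r of 0.06 (permutation test, p = 0.827), and Cd4 and Runx3 an r of 0.43 (permutation test, p = 0.126, adjusted p = 0.336) that turned to -0.19 without the 2 libraries farthest from the median of Cd4.

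Tox and Cd4 changed places in many tumors. Cd4 lay above Tox in 6 of 6 thymus libraries, by 2.70 to 3.58, and in 4 of 14 WT T-ALL libraries (4, 7, 120 and 128). In the other 10 Cd4 minus Tox was below 0, down to -2.53 in WT T-ALL 3.

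For each gene, the 3 genes most like it by Pearson's r over the 14 WT T-ALL libraries are given as a description of these libraries. Cd4 was followed by Lrrc1 (r = 0.78), Spata2l (r = 0.76) and Ddx3y (r = 0.74), the last the Y-linked RNA helicase gene named above. Cd8a was followed by Cd8b1 (r = 0.92), Edaradd (r = 0.88) and Cpm (r = 0.81), and Cd8b1 by Cd8a, Edaradd (r = 0.90) and Pgm3 (r = 0.82). Zbtb7b was followed by Tesc (r = 0.93), Lfng (r = 0.92), a glycosyltransferase that modifies Notch receptors, and Ptpn12 (r = 0.90). Runx3 was followed by Fam71b (r = 0.82), Pdlim5 (r = 0.81) and Eml3 (r = 0.78). Tox was followed by Faf2 (r = 0.89), Ermp1 (r = 0.89) and Fyn (r = 0.87), a kinase of the same family as Lck.

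The second comparison set Notch3 KO T-ALL against the same thymus libraries, so both comparisons share their controls. Of the 6 genes, 4 fell (Cd4, Cd8a, Cd8b1 and Tox) and none rose, where 37.5% of all genes tested passed, 16.3% lower and 21.2% higher. The median difference of the 6 genes was -1.96, beside 0.08 over all genes. For those 4 genes all 3 Notch3 KO T-ALL libraries lay below all thymus libraries, which was so for 18.4% of all genes tested.

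Cd4 stood at 6.11, 6.32 and 3.40 in Notch3 KO T-ALL 1, 2 and 3, against 8.31 or more in thymus. It fell by 3.24 ± 0.72 (SE; limma, adjusted p = 0.00132). The call was lost within set A, where the thymus group holds 2 libraries (-3.37, adjusted p = 0.0672), and with the macrophage covariate (-2.18, adjusted p = 0.0942, limma). Notch3 KO T-ALL 3 lay well below the other pair, and without it the difference was -2.30.

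Cd8a stood at 5.59, 7.72 and 5.50 and Cd8b1 at 5.43, 8.06 and 4.99 in Notch3 KO T-ALL 1 to 3. Notch3 KO T-ALL 2 was the high library for both chains, and its values exceed every WT T-ALL library. Cd8a fell by 2.98 ± 0.56 (SE; limma, adjusted p = 0.00027) and Cd8b1 fell by 3.47 ± 0.63 (SE; limma, adjusted p = 0.000204). With 1 library left out, Cd8a stayed between -3.71 and -2.60 and Cd8b1 between -4.41 and -2.88, both lowest once knockout tumor 2 was left out. The exact permutation test gave p = 0.0238 for Cd4, Cd8a, Cd8b1 and Tox, the smallest that 3 against 6 libraries allow. With the erythroid level as a covariate none of the 4 passed, with differences of -0.13 (Cd4, adjusted p = 0.976), -3.65 (Cd8a, adjusted p = 0.181), -3.59 (Cd8b1, adjusted p = 0.241) and -0.17 (Tox, adjusted p = 0.933, limma).

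Tox stood at 4.83, 4.24 and 4.55, and fell by 0.86 ± 0.31 (SE; limma, adjusted p = 0.0327). The call was lost without Notch3 KO T-ALL 2 (adjusted p = 0.127) or 3 (adjusted p = 0.0887), or thymus control 2 (adjusted p = 0.0569) or 4 (adjusted p = 0.0555, limma). It was also lost relative to the T-cell genes (-0.50, adjusted p = 0.19) and within set A (-0.67, adjusted p = 0.341, limma), and 12 of the alternatives in all ended it. Zbtb7b stood at 3.73, 0.70 and 2.38 and Runx3 at 1.75, 2.96 and 2.88. Neither passed (limma), with differences of -0.93 (adjusted p = 0.317) and -0.53 (adjusted p = 0.383). Zbtb7b was -1.66 once knockout tumor 1 was left out and -0.14 once knockout tumor 2 was, and Runx3 was -0.14 and -0.74 in the same fits. With the neutrophil or macrophage level as a covariate Zbtb7b did pass (-2.25 and -2.49, adjusted p = 0.00606 and 0.0361, limma).

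The third comparison asked whether tumors from Notch3 KO thymus differed from those of wild-type thymus in these genes. By limma 0 of the 6 passed, where 0.617% of 11677 genes did. At an unadjusted p under 0.05 limma gave 0 of the 6 and 994 of all genes, and the exact permutation test gave 0 of the 6. Cd4 was 1.06 higher in Notch3 KO T-ALL, with an interval from -0.49 to 2.61 (limma, adjusted p = 0.86), and the difference ran from 0.54 without Notch3 KO T-ALL 2 to 2.00 without Notch3 KO T-ALL 3. It was 2.12 with the erythroid covariate (interval from 0.27 to 3.97, unadjusted p = 0.0268, adjusted p = 0.974, limma) and 1.65 with the macrophage covariate (adjusted p = 0.594, limma), and 0.67 within set A. Cd8a differed by -0.32 (interval from -1.51 to 0.88), Cd8b1 by -0.28 (-1.63 to 1.06), Zbtb7b by 0.38 (-1.13 to 1.88), Runx3 by -0.54 (-1.52 to 0.43) and Tox by 0.01 (-0.64 to 0.67). A difference of 1 upwards lies inside the intervals of Cd4, Cd8b1 and Zbtb7b, one of the same size downwards inside those of Cd8a, Cd8b1, Zbtb7b and Runx3, and neither inside that of Tox.

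**Figure D4:**
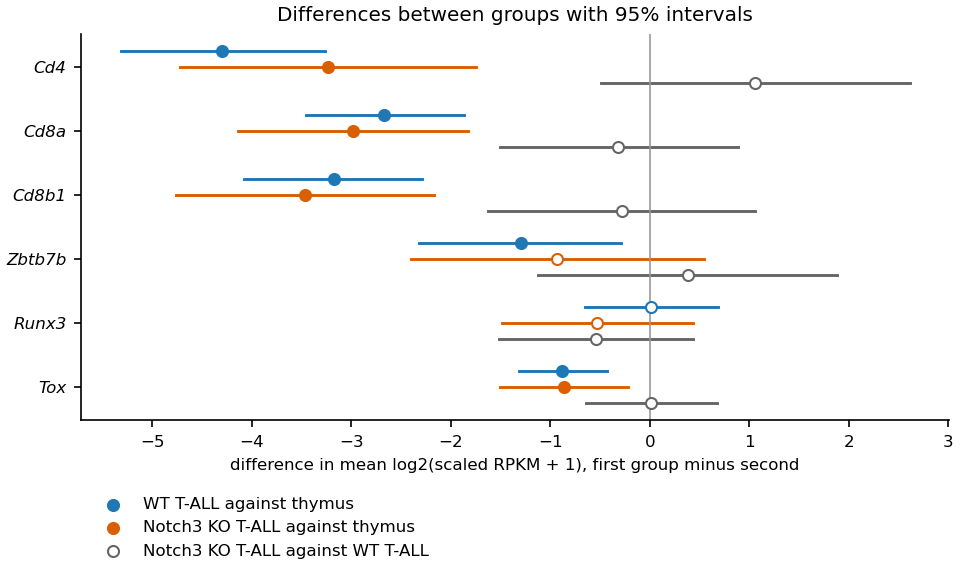
Difference in mean log2(scaled RPKM + 1) between groups for each gene, with the 95% interval as a line; filled points passed an adjusted p of 0.05. The coreceptor intervals against thymus lie wholly below 0, and all 6 intervals of Notch3 KO against WT T-ALL cross 0.

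The 3 Notch3 KO T-ALL libraries had 3 different patterns. Notch3 KO T-ALL 1 was the library of all 23 in which Cd4 (6.11) exceeded Cd8a (5.59), and it had the highest Zbtb7b minus Runx3 (1.98). Its neutrophil genes summed to a scaled RPKM of 6660. Notch3 KO T-ALL 2 had high levels of all 3 coreceptors, a Zbtb7b of 0.70, a Zbtb7b minus Runx3 of -2.26, and a neutrophil sum of 199. Notch3 KO T-ALL 3 was low in all 3 coreceptors, with a Cd4 minus Cd8a of -2.09, a Zbtb7b minus Runx3 of -0.50 and a neutrophil sum of 7520. In Notch3 KO T-ALL 1, 2 and 3 the erythroid genes summed to 327, 1760 and 927. The T-cell genes summed to 1340, 1090 and 1460 in the same order. The part of any of these cells in the 3 patterns was not tested.

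Other regulators of coreceptor expression and of the CD4-CD8 choice were taken as a list of 20 genes, all of which passed the filter. In WT T-ALL 1 of 20 rose and 7 fell, with a median difference of -0.22, and in Notch3 KO T-ALL 1 rose and 6 fell, with a median of -0.51. Over all genes 51.6% and 37.5% passed, 22.3% and 16.3% lower, with a median of 0.08 in each. Tox2, a relative of Tox, was the gene that rose, by 2.35 ± 0.30 (SE; limma, adjusted p = 1.19e-06) in WT T-ALL and by 2.83 ± 0.43 (SE; limma, adjusted p = 3.18e-05) in Notch3 KO T-ALL. Tox2 spanned 0.58 to 1.11 in thymus, 1.82 to 4.42 in WT tumors and 3.00 to 3.95 in knockout tumors, with no overlap between tumors and thymus. Tox2 thus rose where Tox fell.

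Satb1, a chromatin organizer that acts at the coreceptor and lineage-factor loci, fell by 2.38 ± 0.21 (SE) in WT T-ALL and fell by 1.86 ± 0.31 (SE) in Notch3 KO T-ALL (limma, adjusted p = 8.72e-09 and 7.99e-05). Socs1, an inhibitor of cytokine signaling, fell by 2.39 ± 0.34 (SE) and fell by 3.19 ± 0.49 (SE; limma, adjusted p = 5.61e-06 and 3.67e-05). Bcl11b, a zinc-finger factor of T-cell commitment, fell by 1.31 ± 0.17 (SE) and fell by 1.54 ± 0.24 (SE; limma, adjusted p = 1.07e-06 and 3.89e-05). Myb, Ets1 and Tcf7 fell in both comparisons, and Id3 fell in WT T-ALL (-0.87) and was at -0.89 in Notch3 KO T-ALL without passing. Gata3, which acts upstream of Zbtb7b in the CD4 lineage, had a mean of 4.99 in thymus, 5.06 in WT T-ALL and 5.06 in Notch3 KO T-ALL, and neither it nor Runx1, the Runx factor that silences Cd4 before the coreceptors appear, passed in any comparison as fitted. Tox2, Satb1, Socs1 and Bcl11b are named as the 4 largest changes that passed, and the other genes of the list were picked for naming after their values were seen.

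**Figure D5:**
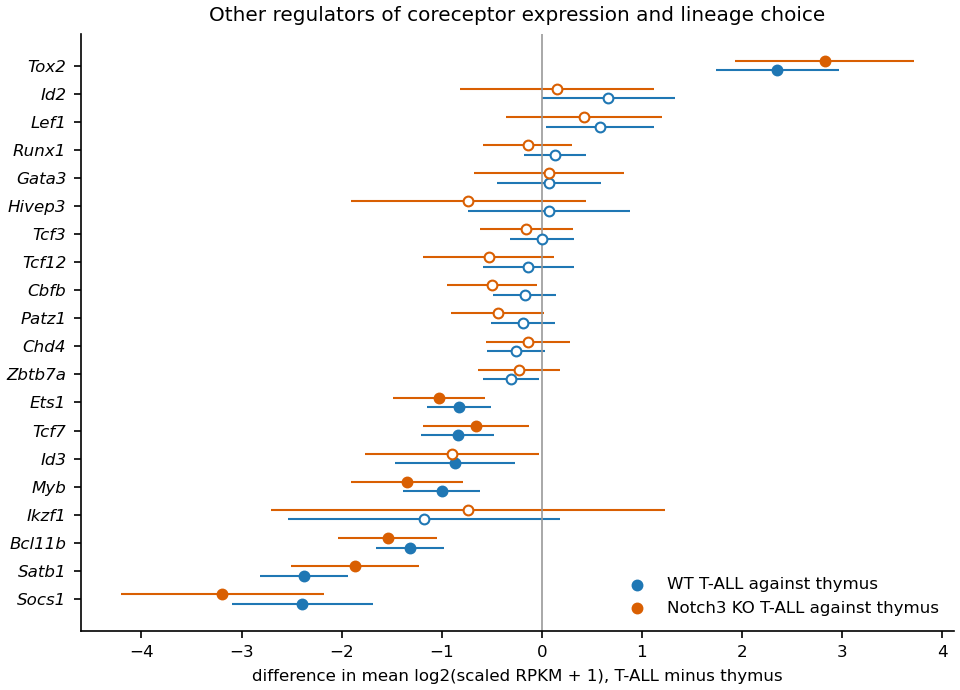
Difference from thymus in mean log2(scaled RPKM + 1) for the 20 other regulators in WT T-ALL and Notch3 KO T-ALL, with 95% intervals; filled points passed an adjusted p of 0.05. Tox2 is the filled point above 0 in each comparison, and Socs1, Satb1 and Bcl11b are the lowest filled points.

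With the erythroid level as a covariate, Tox2, Socs1 and Bcl11b no longer passed in WT T-ALL (adjusted p = 0.113, 0.307 and 0.175), Satb1 still did (-1.54, adjusted p = 0.0358), and none of the 4 passed in Notch3 KO T-ALL (limma). Over the 20 genes this covariate left 1 call in WT T-ALL and 0 in Notch3 KO T-ALL, and within set A 1 gene rose and 4 fell in each. By limma 0 of the 20 passed between Notch3 KO and WT T-ALL, and 0 had an unadjusted p under 0.05. Lck, the kinase that both coreceptors bind, spanned 9.34 to 9.87 in thymus, 7.62 to 9.21 in WT tumors and 8.51 to 9.07 in knockout tumors. It fell by 0.90 ± 0.17 (SE) and fell by 0.81 ± 0.24 (SE; limma, adjusted p = 0.000134 and 0.0115). The first call was lost with the erythroid or neutrophil covariate (adjusted p = 0.199 and 0.0997), and the second with any of the 3 covariates, without Notch3 KO T-ALL 1 or 3 (adjusted p = 0.0562 and 0.0742) or relative to the T-cell genes (adjusted p = 0.169, limma).

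Genes of the stage at which thymocytes carry both coreceptors were set beside these values. Of 8 such genes, 7 fell and 1 rose in each comparison with thymus, with median differences of -1.99 and -2.48, where 51.6% and 37.5% of all genes passed and the median over all genes was 0.08 in each. Rag1, a recombinase subunit, had a mean of 10.09 ± 0.35 (SD, n = 6) in thymus, 6.46 ± 1.51 (SD, n = 14) in WT T-ALL and 5.72 ± 2.55 (SD, n = 3) in Notch3 KO T-ALL. Cd24a, a marker of immature thymocytes that red cell precursors also carry, was the gene that rose, by 1.03 and 1.85. Of the genes of mature T cells, Ccr7 and S1pr1 fell in WT T-ALL, and 4 fell in Notch3 KO T-ALL. Of the 6 general T-cell genes, 1 fell in WT T-ALL (Lat) and none passed in Notch3 KO T-ALL. Of the CD8 effector genes that passed the filter on low values, 2 of 6 fell and none rose in each comparison, and of the CD4 effector genes 3 of 4 fell in WT T-ALL and 2 of 4 in Notch3 KO T-ALL, where 22.3% and 16.3% of all genes fell.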

How the data were processed

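The authors deposited log2 values, log2(scaled RPKM + 1), whose 75th percentile of scaled RPKM is 10 in all 23 libraries. By the study's methods, stranded mRNA libraries were read on an Illumina HiSeq 2000, and reads were mapped with OSA in ArrayStudio to the mouse transcriptome, with mm10 as the genome build in the submitters' processing notes. The table holds no counts, so no counting intervals are given, and relative depth was read from the worth of 1 read in the lowest values.

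Genes reaching 1 scaled RPKM in 3 or more of the fitted libraries entered limma 3.58.1 (R 4.3.3, lmFit, then eBayes with trend and robust), and passed at a Benjamini-Hochberg adjusted p under 0.05 over all genes. All 3 groups entered 1 fit for comparisons with thymus, and the T-ALL groups alone entered the third. Exact tests and correlations (100000 permutations) used scipy 1.17.1 and numpy 2.4.6. The genes and lists were chosen with earlier results of these data known. The network list names its 4 largest changes that passed. On simulated data the fits called 98%, 90% and 91% of log2 changes of size 2 and 78%, 52% and 50% of those of size 1, for WT T-ALL against thymus, Notch3 KO T-ALL against thymus and Notch3 KO against WT T-ALL. Each simulated gene had the same spread in all groups, and few genes were changed. The 6 genes described here spread more over WT tumors than over thymus, so these shares need not hold for them. Positions came from GENCODE M21. Alternatives added after seeing the data were the library sets, the averaged controls, and the neutrophil and macrophage covariates. So were the relations with cell lists. Some results of the marker lists are not reported here.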

Additional observations from a re-analysis of the deposited data

How the results depend on the processing

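Of 558 values of the 6 genes under alternatives, 490 kept their direction and side of the threshold, 35 changed sign, 31 lost a call and 2 gained one, and for those below the cause was not tested. With the erythroid covariate 2 of the 6 genes passed in WT T-ALL against thymus and 0 in Notch3 KO T-ALL against thymus, and within set A 3 and 2 passed, where fewer libraries are fitted. Leaving out 1 library gave 4 to 5, 3 to 4 and, between the tumor groups, 0 to 0 genes.

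Runx3 in WT T-ALL against thymus was -0.011 and -0.015 with offsets of 0.1 and 0.01, -0.017 with quantile normalization, -1.5e-05 within set B and -0.077 with the macrophage covariate, and -0.11 to 0.12 with 1 library left out. Between Notch3 KO and WT T-ALL, Cd8a was 0.0059 with the library set as a term and within set A, and -1.04 to 0.071 with 1 library left out. With the macrophage covariate Cd8b1 was 0.29 and Zbtb7b -0.44, and with 1 library left out they were -1.23 to 0.30 and -0.35 to 1.16. Tox was -0.0025 with quantile normalization, -0.15 with the library set as a term and within set A, -0.037 with the neutrophil covariate and -0.13 to 0.16 with 1 library left out. Bcl11b was 0.05 with the erythroid covariate, and Lck was -0.0047 with the neutrophil covariate and -0.091 to 0.19 with 1 library left out. For Notch3, Notch3 KO T-ALL minus thymus was 0.25, 0.41 and 0.20 with the erythroid, macrophage and neutrophil covariates, 0.24 relative to the T-cell genes, 0.0072 within set A and -0.40 to 0.17 with 1 library left out.

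Without the 2 libraries farthest from the median, r was -0.03 for Cd4 with Zbtb7b, -0.19 for Cd4 with Runx3, 0.15 for Cd4 with Tox, 0.74 for Cd8a with Cd8b1 and -0.20 for Cd8b1 with Tox. Relative to the T-cell genes r was 0.22 for Cd4 with Tox, -0.04 for Cd8b1 with Tox, 0.11 for Zbtb7b with Tox and 0.12 for Runx3 with Tox.

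Same-numbered libraries had deviations correlated from -0.235 to 0.151, so the numbers did not pair them. With the replicate number as a block, Runx3 was -0.62 and Tox -0.45 (adjusted p = 0.383) in WT T-ALL against thymus, and in Notch3 KO T-ALL against thymus Tox was -0.82 (adjusted p = 0.121) and Notch3 0.15. The block gave 2926 calls over all genes in place of 6150, and 3643 in place of 4475. No paired analysis was possible between the tumor groups because they share 1 number. Over all genes, calls between the tumor groups with 1 library left out ran from 3 without Notch3 KO T-ALL 2 to 205 without Notch3 KO T-ALL 1, beside 72, and were 2 with an offset of 0.01 and 254 with all 3 groups in the fit. Calls against thymus with the erythroid covariate were 953 and 112, and relative to the T-cell genes the share of calls that were higher in Notch3 KO T-ALL rose from 56.5% to 86.3%.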
